A study of Mus musculus with 4 samples.

Results

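The cells described here are Kit+ bone marrow cells of the mouse that carried the antibodies to CD117 and Sca1 and lacked CD150 at their surface, the gate in which multipotent progenitors are looked for. They were selected on measured values: at least 125 antibody counts for CD117, at least 33 for Sca1 and under 14 for CD150, no UMI (unique molecular identifier, 1 per captured RNA molecule) of Dntt, and under 20 UMIs of 6 B-lineage genes (Cd79a, Cd79b, Vpreb1, Vpreb3, Igll1 and Ebf1) per 10000 gene UMIs, in barcodes that held 500 genes or more, 1000 gene UMIs or more and no more than 10% of mitochondrial UMIs. This gave 914 cells of 19758 filtered cells in 3 libraries, namely 370 in the control library, 357 in the library labelled Mll3 deleted and 187 in the library labelled Mll4 deleted. The levels of the antibodies and genes used for this choice are description only, and no test is read from them.

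The study compared mice whose donor-derived marrow lacked Mll3, Mll4 or both with controls, in Kit+ cells bearing CD45.2 taken 10 weeks after transplantation. Each group is 1 library of RNA and barcoded antibodies read from the same cells, so no difference between genotypes has a replicate. The allele designs, the Cre driver, the strain of the hosts, the number of animals behind a library and the agent given to controls are not given in the sources used here. The library labelled Mll3/4 deleted held 7 such cells among 7408 and was not compared further.

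Multipotent progenitors stand just below the hematopoietic stem cell. They have lost durable self-renewal, cycle more often than stem cells do and still give rise to myeloid and lymphoid cells. In mouse marrow the SLAM family receptors CD150 and CD48 separate them from stem cells, which bear CD150 and lack CD48, and the cytokine receptor FLT3 marks those that lean to the lymphoid side. Mll3 (Kmt2c) and Mll4 (Kmt2d) encode histone methyltransferases that act at enhancers.

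The library labels were checked first on the targeted genes within the CD150- cells. Kmt2c (mm10 5:25271798-25498783, minus strand) had 63.8 CPM in control (95% counting interval 57.5 to 70.5), where CPM is a gene's UMI count scaled to the same total of gene UMIs in each set of summed cells. It had 35.3 CPM (30.9 to 40.1) with the Mll3 label and 84.3 CPM (67.7 to 104) with the Mll4 label. Kmt2d (mm10 15:98831669-98871204, minus strand) was at 29.4, 27.2 and 27.5 CPM in the same order. Kmt2c was thus lower in the library labelled for it, and Kmt2d was not. Reads of this assay come from the 3' end of a transcript and need not fall in the deleted part, so the Kmt2d level does not check its label. Xist was at 1711 and 1449 CPM in the control and Mll3-labelled CD150- cells, and at 0 counts in the Mll4-labelled cells, where 3 counts would be 2.84 CPM. Xist is transcribed from the inactive X chromosome of female cells, so what sets it and the genotype cannot be told apart in that library. Median depth was 14047, 14565 and 4665 UMIs per CD150- cell, over 1055338 to 6548713 summed UMIs, so the Mll4-labelled values carry the widest intervals. Barcodes shared between any 2 libraries numbered 9 to 24, with none among the CD150- cells.

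The 4 transcripts taken as markers of this population were Cd34, which encodes a sialomucin of early progenitors, Adgrl4, an adhesion G protein-coupled receptor, Cd27, a receptor of the tumour necrosis factor family, and Flt3. Cd34 stood at 369, 271 and 289 CPM in control, Mll3-labelled and Mll4-labelled cells. Flt3 stood at 65.4, 46 and 43.6 CPM in the same order, against 7.55, 4.13 and 9.25 CPM in the CD150+CD48- cells. Adgrl4 was at 412, 360.1 and 228 CPM, and Cd27 at 136, 111 and 86.2 CPM. Each marker was highest in control over all CD150- cells, and the counting intervals of the 4 markers in control did not reach those of the Mll3-labelled library. The lower level was not particular to this gate. The median log2 ratio of the 4 markers to control, with 1 CPM added, was -0.36 with the Mll3 label and -0.61 with the Mll4 label. In all other filtered cells it was -0.43 and -0.34. Taken as a mean over cells, the Mll3-labelled median in the gate was -0.14. Without the cells rich in genes of other types, described next, Cd34 was highest in the Mll4-labelled library, at 395 CPM against 383 CPM in control.

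**Figure D1:**
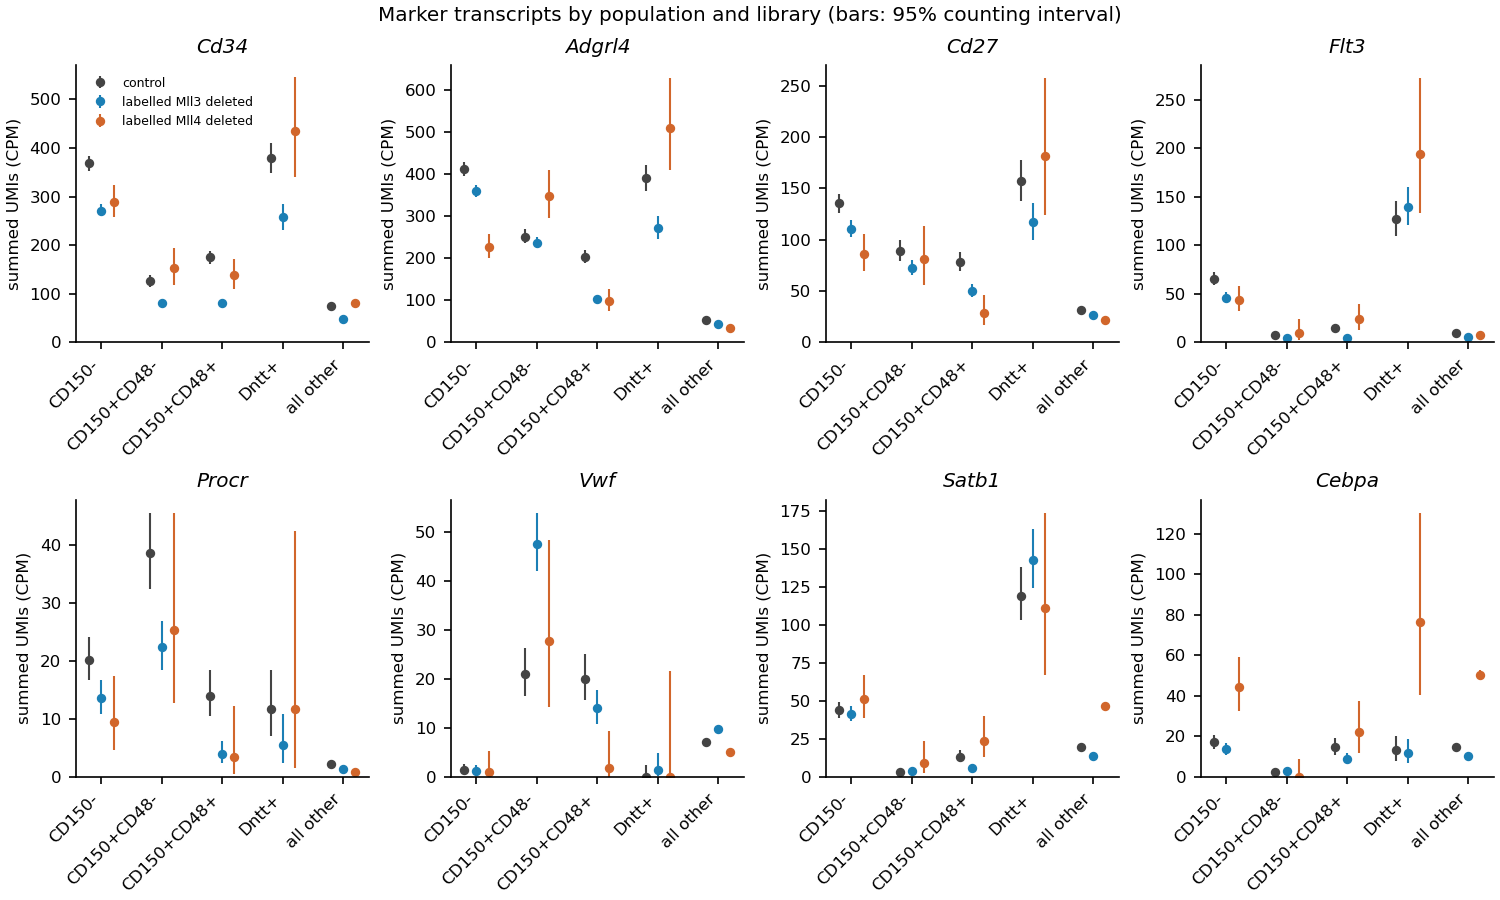
CPM of the summed cells (vertical axes, linear from 0) of 8 transcripts in 5 cell populations (horizontal axes) of the control, Mll3-labelled and Mll4-labelled libraries; points are 1 library each and bars are 95% counting intervals. Cd34 and Flt3 lie higher in the CD150- cells than in the CD150+CD48- cells in all 3 libraries, and Vwf lies lower.

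Cd34, Adgrl4 and Cd27 each had a UMI in 79.8% to 95.9% of the control and Mll3-labelled cells, and Flt3 in 56.2% and 45.7%. In the Mll4-labelled library, which was also sequenced less deeply, the 4 shares were 17.1% to 61.5%. All 4 markers had a UMI in 171 of 370 control cells, 136 of 357 Mll3-labelled cells and 15 of 187 Mll4-labelled cells, and 3 of them in a further 152, 159 and 37 cells. No marker was seen in 5, 16 and 48 cells in that order. Lists of genes of other cell types gave a second check. Cells with at least 500 UMIs per 10000 from 10 neutrophil genes, 50 from 8 mast cell and basophil genes or 100 from 10 MHC class II genes made up 4.32% of control CD150- cells (16 cells, exact binomial interval 2.49 to 6.93%) and 4.48% of Mll3-labelled ones (16 cells, 2.58 to 7.18%). In the Mll4-labelled library they made up 41.7% (78 cells, 34.6 to 49.1%), of which 31 were rich in neutrophil genes, 33 in mast cell and basophil genes and 15 in MHC class II genes. The control cells held 15, 0 and 1 of these kinds. Of the 78 cells, 43 had no UMI of the 4 markers, against 5 of the other 109 cells of that gate. The 78 cells had a median CD34 antibody count of 19, against 58 in the other 109, at similar depths of 4023 and 4916 UMIs. The limits were set after the data had been seen. Results below include these cells unless said otherwise.

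**Figure D2:**
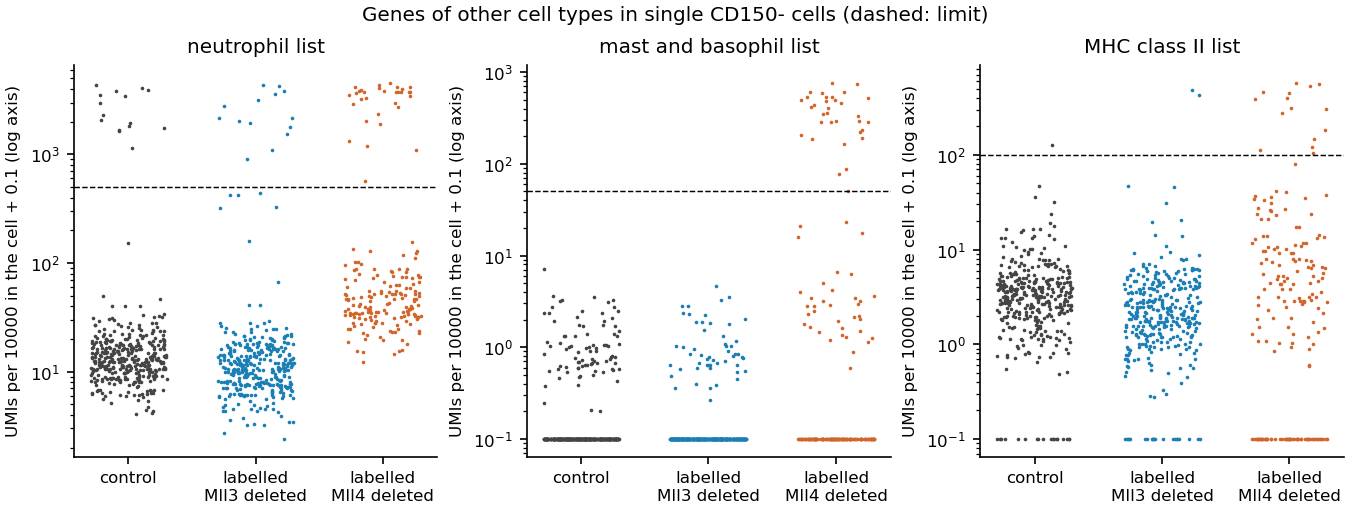
UMIs per 10000 in each CD150- cell (vertical axes, logarithmic, with 0.1 added) from the neutrophil, mast and basophil, and MHC class II lists, by library; each point is 1 cell and the dashed line is the limit used to leave cells out. The mast and basophil panel shows 33 Mll4-labelled cells above the line and none of the control or Mll3-labelled cells.

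CD150- cells were 4.76% of filtered cells in control (exact binomial interval 4.3 to 5.26%), 5.63% in the Mll3-labelled library (5.08 to 6.23%) and 3.31% in the Mll4-labelled library (2.86 to 3.81%). In the library labelled Mll3/4 deleted the share was 0.0945% (7 of 7408 cells, 0.038 to 0.195%). Within the CD117 and Sca1 gate they were 40.9% of 905 control cells, 38.6% of 925 Mll3-labelled cells, 48.8% of 383 Mll4-labelled cells and 0.245% of 2859 double-deleted cells. With the cells rich in genes of other types left out of the numerator, the shares of filtered cells were 4.56%, 5.38% and 1.93% in the first 3 libraries, and the shares of the CD117 and Sca1 gate 39.1%, 36.9% and 28.5%. The Mll4-labelled share of filtered cells was thus the lowest of the 3 with those cells in or out of the numerator. With them left out throughout, 354, 341 and 109 CD150- cells stood beside 5347, 4730 and 2238 other filtered cells. The Mll4-labelled share of the CD117 and Sca1 gate was the highest with them and the lowest with the numerator alone reduced. Rich cells of other populations stayed in that denominator. They were 9.94%, 13.1% and 36.4% of the CD150+CD48+ cells, so no order is read from the reduced gate shares. These intervals cover counting error only. All 4 shares are shares of sorted Kit+ cells: fewer CD150- cells and more of the other cells cannot be told apart. The Mll4-labelled share of filtered cells stayed the lowest of the 3 under each other gate limit tried. The cells just inside the CD150 limit (11 to 13 antibody counts) numbered 22, 29 and 19, and those just outside it (14 to 16 counts) 44, 22 and 13, in control, Mll3-labelled and Mll4-labelled order.

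CD48, the SLAM receptor that divides the gate further, was split at 372.7 antibody counts, where the 2 components of a mixture fitted to filtered control cells cross. CD48+ cells were 75.4% of control CD150- cells (70.7 to 79.7%), 57.1% of Mll3-labelled ones (51.8 to 62.3%) and 64.2% of Mll4-labelled ones (56.8 to 71%). Without the cells rich in genes of other types the values were 75.1%, 56.6% and 51.4%. Control was highest in both cases. The CD48 threshold came from control and was the same in each library. Median CD48 counts also differed outside these cells. In cells of the same antibody gates with a Dntt UMI they were 899, 727 and 987 in control, Mll3-labelled and Mll4-labelled order. In all other filtered cells they were 464, 397 and 207. The part of such differences between libraries in the CD48+ shares was not tested.

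**Figure D3:**
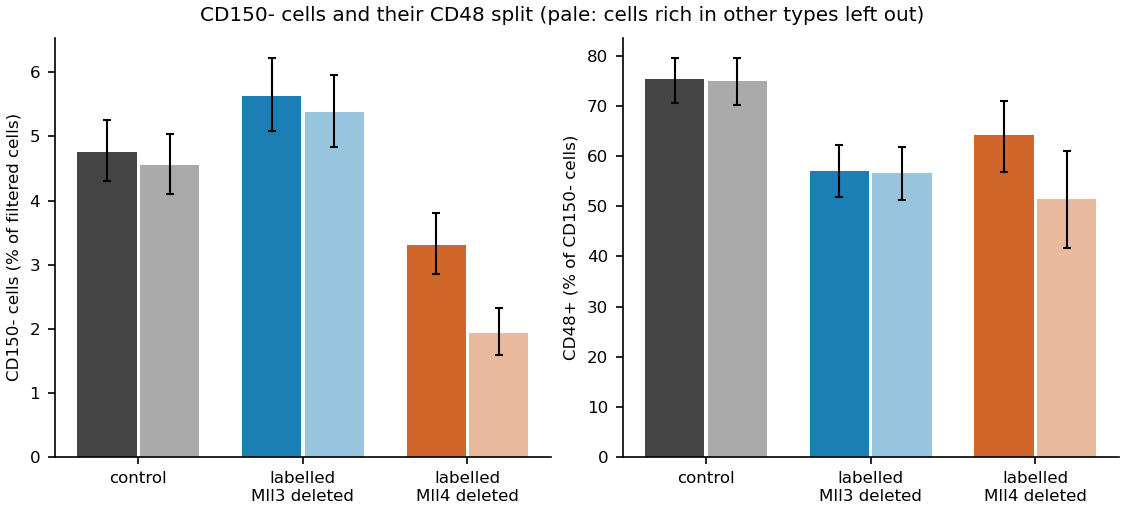
CD150- cells as a percentage of filtered cells (left, axis from 0) and CD48+ cells as a percentage of CD150- cells (right, axis from 0) in the 3 libraries; bars with exact 95% binomial intervals, pale bars without the cells rich in genes of other types. The pale Mll4-labelled bar on the left stands at 1.93%, and the pale control bar at 4.56%. For the pale bars on the left those cells were taken out of the numerator only and stayed among the filtered cells.

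Among the antibodies that the selection did not use, CD34 and CD41 differed in median from the CD150+CD48- cells in every library. The median count of CD34, the protein of the first marker, was 56, 79 and 40 in the CD150- cells of control, the Mll3-labelled and the Mll4-labelled library, against 18, 23 and 23 in the CD150+CD48- cells. CD41, the platelet integrin encoded by Itga2b, had medians of 9, 4 and 10 against 46, 17 and 37. CD34 was higher and CD41 lower in the CD150- cells of all 3 libraries. CD201, encoded by Procr, had lower medians of 6, 5 and 6 against 8, 7 and 8. CD16/32 had higher medians of 19, 22 and 28 against 16, 21 and 15. The CD135 antibody, which binds FLT3, had medians of 3 in the CD150- cells of each library and of 2, 2 and 3 in the CD150+CD48- cells. Gr1, a myeloid antigen, had equal medians in both populations of control (29) and of the Mll3-labelled library (33).

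The first comparison asked how the CD150- cells differ from the CD150+CD48- cells, the gate that holds stem cells (253 control, 311 Mll3-labelled and 79 Mll4-labelled cells). UMI counts were summed per library and population and tested with library as a block, so an adjusted p (edgeR's quasi-likelihood test, Benjamini-Hochberg, called under 0.05) measures how alike the difference was in the 3 libraries, which are of different genotype. Stem cell genes fell and myeloid and lymphoid genes rose. In the CD150- cells 595 of 11102 genes were higher (5.36%) and 649 were lower (5.85%). Of 18 stem cell genes, 16 fell and none rose, with a median log2 fold change of -1.15 against 0.0019 over all genes. Of 17 tested members of the myeloid priming list 16 rose (median 1.44), and 8 of 11 tested lymphoid priming genes rose (median 1.05).

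Among stem cell genes, Procr, which encodes the endothelial protein C receptor, was at 20.1, 13.6 and 9.48 CPM in the CD150- cells of the 3 libraries and at 38.6, 22.4 and 25.4 CPM in the CD150+CD48- cells. Its log2 fold change was -0.84 ± 0.16 (SE, 3 libraries, adjusted p = 6.43e-04). Mecom, a zinc finger regulator of stem cell maintenance, fell by 0.71 on the log2 scale (± 0.095, adjusted p = 6.25e-06). Both were lower in the CD150- cells of each library. The 3 largest falls among the genes named by rule were those of Cavin2, Pf4 and Vwf. Vwf, von Willebrand factor, was at 1.35, 1.22 and 0.948 CPM in the CD150- cells of control, the Mll3-labelled and the Mll4-labelled library and at 21, 47.7 and 27.7 CPM in the CD150+CD48- cells (log2 fold change -4.70 ± 0.27, adjusted p = 2.74e-12). Pf4, platelet factor 4, was at 12.5, 12.8 and 14.2 CPM against 306, 633 and 326 CPM (-5.07 ± 0.21, adjusted p = 1.01e-05). Cavin2, a caveolar coat protein of platelets, was at 0.169, 0 and 2.84 CPM against 47.5, 87.8 and 50.8 CPM (-7.64 ± 0.44, adjusted p = 3.66e-06). The populations did not overlap in these 3 genes, which were picked by the size of their fall. The share of all genes without overlap was not counted, here or below. Hlf, a stem cell transcription factor, did not pass the test (-0.13 ± 0.14, adjusted p = 0.665), with 247, 193 and 139 CPM in the CD150- cells and 259.7, 185 and 259 CPM in the CD150+CD48- cells. Its level fell inside the range of the CD150+CD48- cells except with the Mll4 label, where it lay below. These Hlf levels include the cells rich in genes of other types. The other genes named by rule among the falls were Nupr1, Tgm2, Tcf15, Clca3a1, Mmrn1, Lhcgr and Slamf1, with log2 fold changes of -3.96 to -2.62. Slamf1 encodes CD150, on which the cells were selected.

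Satb1, a chromatin organiser of lymphoid progenitors, was at 43.8, 41.4 and 51.2 CPM in the CD150- cells of control, the Mll3-labelled and the Mll4-labelled library and at 3.36, 3.57 and 9.25 CPM in the CD150+CD48- cells (3.52 ± 0.20, adjusted p = 3.48e-12). Flt3 rose by 3.24 ± 0.18 on the log2 scale (adjusted p = 1.67e-12). Notch1, the receptor that directs T-cell fate, rose by 1.05 ± 0.22 (adjusted p = 0.00147). These lymphoid genes were higher in the CD150- cells of each library. On the myeloid side Mpo, myeloperoxidase, was at 408, 609.9 and 694 CPM against 96.7, 172 and 146 CPM (2.04 ± 0.093, adjusted p = 5.16e-14). Ctsg, cathepsin G, was at 367, 499 and 410.3 CPM against 101, 172 and 69.3 CPM (1.84 ± 0.14, adjusted p = 1.02e-05). Cebpa, the transcription factor of granulocyte fate, was at 17.1, 13.6 and 44.5 CPM against 2.24, 2.82 and 0 CPM (2.78 ± 0.31, adjusted p = 1.25e-06). The granule genes and their regulator thus rose together with the lymphoid genes in the same summed cells. Of the 4 population markers, Cd34 rose by 1.56 ± 0.11 (adjusted p = 8.41e-09) and Cd27 by 0.58 ± 0.098 (adjusted p = 1.36e-04). Adgrl4 was not called (0.42 ± 0.33, adjusted p = 0.622) and lay lower than in the CD150+CD48- cells in the Mll4-labelled library only, at 228 against 349 CPM. Both Adgrl4 levels include the cells rich in genes of other types. Others named by rule among the rises were Wfdc17, BC035044, Ccl9, Tespa1 and Cd48 (3.21 to 4.39). Cd48 encodes the protein whose low count defined the CD150+CD48- cells, so its rise is description only. Ccr2 and Il1rl1 were also named. Il1rl1 was at 2.71, 2.6 and 136 CPM in the CD150- cells and at 0.559, 0.94 and 0 CPM in the CD150+CD48- cells. Its counts in the CD150- cells were 16, 17 and 143, so most came from the Mll4-labelled library, where 38 of 187 cells carried it. Without the cells rich in genes of other types the log2 fold change of Il1rl1 was 2.06 (adjusted p = 0.0046) and that of Ccr2 1.98 (adjusted p = 0.00113). With all cells DESeq2 did not call Il1rl1 (adjusted p = 0.39).

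The erythroid and megakaryocyte list split. Of 18 members 9 fell, Gata1, Car2, Pf4, Gp1bb, Gp9, Vamp5, Zfpm1, Mfsd2b and Gfi1b, while Klf1, Tfrc, Rhd and Ermap rose. Klf1, the master regulator of red cell genes, was at 20.1, 44.7 and 8.53 CPM in the CD150- cells and 11.2, 12.6 and 6.93 CPM in the CD150+CD48- cells (1.45 ± 0.20, adjusted p = 2.79e-05). These erythroid counts sat in few cells. In control 17 of 370 CD150- cells had a Klf1 UMI, and the 10 cells with the most held 94.1% of its 119 counts. In the Mll3-labelled library 31 of 357 cells had one, and the 10 highest held 71.7% of 293 counts. By contrast Mpo was seen in 319 of 370 control cells and its 10 highest cells held 43.6% of its counts. In the Mll3-labelled library Mpo was seen in 328 of 357 cells and the 10 highest held 41.8%. In the less deeply sequenced Mll4-labelled library it was seen in 92 of 187 cells, and the 10 highest held 75.4%. In control and the Mll3-labelled library a Klf1 UMI was thus seen in few cells and an Mpo UMI in most.

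Few cycling genes were called: 1 of 20 S phase genes (Rrm2) and 1 of 20 G2/M genes (Hmgb2) rose, and none fell. Without the cells rich in genes of other types 5 S phase genes and 0 G2/M genes rose. Of 19 tested interferon response genes 5 fell, among them Ifit1, Ifit2, Ifitm3 and Rsad2, and 2 rose (Ifi27l2a and Ly6e). The counts of calls moved with the libraries used. Without the control library 256 genes were higher and 253 lower, without the Mll3-labelled library 324 and 281, and without the Mll4-labelled library 1012 and 971. DESeq2 called 207 higher and 200 lower, of which 184 and 196 were among the calls of edgeR's quasi-likelihood test. Leaving out the cells rich in genes of other types gave 806 and 869, of which 523 and 641 were among the calls with all cells, and 16 stem cell genes were lower and 16 myeloid genes higher.

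**Figure D4:**
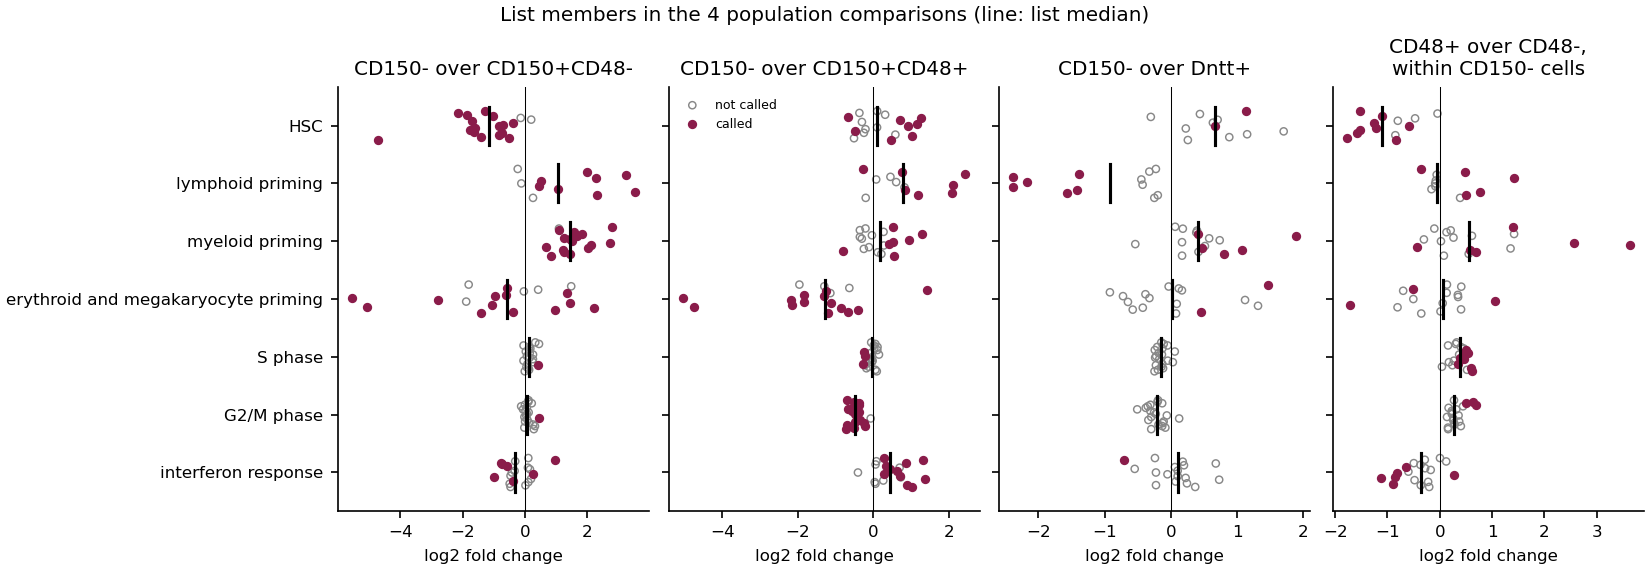
Log2 fold change (horizontal axes, panels scaled separately) of the members of 7 gene lists (rows) in the 4 comparisons of populations; each point is 1 gene, filled where called at an adjusted p under 0.05, and the black line is the list's median. The stem cell row (HSC) lies to the left of 0 in the first panel, with a median of -1.15, and near 0 in the second, with a median of 0.0999.

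The second comparison set the CD150- cells against CD150+CD48+ cells (161, 137 and 66 cells), the gate linked to megakaryocyte and erythroid output. The CD150- cells were lower in erythroid, megakaryocyte and mitotic genes and higher in all 4 population markers and in interferon response genes. In them 926 of 10849 genes were higher (8.54%) and 935 were lower (8.62%). Of 18 erythroid and megakaryocyte genes 13 fell and 1, Cnrip1, rose (median -1.28 against -0.0081 over all genes). Gata1, the erythroid and megakaryocyte transcription factor, was at 8.79, 17.4 and 7.58 CPM in the CD150- cells of control, the Mll3-labelled and the Mll4-labelled library and at 40.4, 47.5 and 52.4 CPM in the CD150+CD48+ cells (-1.84 ± 0.16, adjusted p = 9.41e-12). Here Klf1 fell as well (-1.11 ± 0.18, adjusted p = 0.00251), so the CD150- cells stood between the CD150+ populations for this gene. Gp5, a subunit of the platelet receptor for von Willebrand factor, was at 5.58, 3.66 and 7.58 CPM against 28.8, 13.8 and 59.1 CPM (-2.30 ± 0.21, adjusted p = 3.48e-12). The populations did not overlap for Gata1 or Gp5, both named by the size of their fall.

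Flt3 rose by 2.44 ± 0.33 (adjusted p = 0.00784), from 14.5, 4.38 and 23.7 CPM in the CD150+CD48+ cells. Adgrl4 rose by 1.37 ± 0.13 (adjusted p = 4.88e-05), Cd34 by 1.33 ± 0.11 (adjusted p = 2.96e-08) and Cd27 by 1.004 ± 0.099 (adjusted p = 2.96e-11). The stem cell genes Procr (1.03 ± 0.23, adjusted p = 7.76e-04), Mecom (0.93 ± 0.12, adjusted p = 4.64e-08) and Hlf (1.26 ± 0.21, adjusted p = 0.0256) were higher in the CD150- cells, and Gata2, a zinc finger transcription factor, was lower. Over the list 6 of 17 tested genes rose and 2 fell. The CD150- cells were thus intermediate for Procr and Mecom, below the CD150+CD48- cells and above the CD150+CD48+ cells. Of 18 myeloid priming genes 6 rose, among them Cebpa, Irf8 and Spi1, and Ms4a3 fell. Mpo was not called (-0.25 ± 0.29, adjusted p = 0.692).

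Of 20 G2/M genes 18 fell and none rose (median -0.48), among them Mki67, a marker of cycling cells (-0.48 ± 0.071, adjusted p = 7.83e-07), and Ccnb1, cyclin B1 (-0.68 ± 0.097, adjusted p = 4.75e-07). Of 20 S phase genes 3 fell, Mcm2, Mcm5 and Rrm1. Of 19 tested interferon response genes 11 rose and none fell, among them Ifi27l2a (1.31 ± 0.16, adjusted p = 1.30e-08) and Isg15 (0.62 ± 0.20, adjusted p = 0.0252, lower in the Mll4-labelled library at 7.58 against 11.8 CPM). Median depth per cell was 18079, 25015 and 7613 UMIs in the CD150+CD48+ cells, above the CD150- cells in each library, and cells rich in neutrophil genes were 8.07%, 11.7% and 25.8% of them. The part of depth and of those cells in the G2/M difference was not tested, and the count of G2/M genes that fell was 19 without the cells rich in genes of other types. Of the genes named by rule, Slc16a11, a monocarboxylate transporter family member, rose most (2.98 ± 0.29), followed by Flt3, Satb1, Ccl9, Pcp4l1, Ahnak, Stxbp4, Ltb, Gpr171 and Ly6a (1.53 to 2.44). Those that fell were Cavin2, Pf4, Nupr1, Gp5, Tuba8, Mfsd2b, Tcrg-C1, Slc14a1, Gata1 and Aldh1a1 (-6.53 to -1.83). Ly6a encodes Sca1, on which both populations were selected at the same limit. Without the Mll4-labelled library Pcp4l1 was no longer called. Leaving out the highest doublet scores kept 120 of 161, 79 of 137 and 51 of 66 CD150+CD48+ cells. Of the CD150- cells it kept 341 of 370, 323 of 357 and 172 of 187. It gave 623 genes higher and 634 lower, of which 561 and 575 were among the calls with all cells. The part of doublets in the differences was not tested. Calls numbered 331 higher and 308 lower without the control library, 255 and 252 without the Mll3-labelled library and 1009 and 1013 without the Mll4-labelled library, and DESeq2 called 195 and 189.

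The third comparison used the cells with the same antibody gates and at least 1 Dntt UMI (75, 74 and 30 cells). Dntt encodes terminal deoxynucleotidyl transferase, an early lymphoid enzyme, and it is the gene that divides the groups. The CD150- cells without it were lower in lymphoid genes and higher in granule genes. In the CD150- cells 43 of 9106 genes were higher (0.472%) and 35 were lower (0.384%). Of 12 tested lymphoid priming genes 6 fell, Flt3, Satb1, Notch1, Il12a, Ighm and Mn1, and none rose (median -0.91 against -0.0014 over all genes). Flt3 was at 127, 139.8 and 194 CPM in the Dntt+ cells of control, the Mll3-labelled and the Mll4-labelled library (-1.38 ± 0.16, adjusted p = 1.14e-04). Satb1 was at 119, 143 and 111 CPM there (-1.57 ± 0.13, adjusted p = 8.39e-08), and Il12a, a subunit of interleukin 12, at 48.9, 67.8 and 99.7 CPM against 13.2, 13.4 and 18 CPM (-2.17 ± 0.18, adjusted p = 4.62e-08). None of these 3 genes, named by the size of their fall, overlapped between the groups. Median depth was 16985, 15100 and 4957 UMIs in the Dntt+ cells, above that of the CD150- cells in each library, and its part in these differences was not tested.

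Of 16 tested myeloid priming genes 5 rose and none fell, namely Mpo, Ctsg, Elane, Prtn3 and Ms4a3. Elane, neutrophil elastase, was at 248, 532 and 504 CPM in the CD150- cells and at 73.6, 143 and 99.7 CPM in the Dntt+ cells (1.89 ± 0.11, adjusted p = 1.33e-10). Elane counts were concentrated, with 77.4%, 70.6% and 89.7% of them in the 10 highest CD150- cells of each library. Mpo rose by 0.47 ± 0.093 (adjusted p = 0.0098). Among the other rises named by rule were Cd74, Hbb-bt, Apoe, H2-Eb1, Gng11, Bex4, Slc18a2 and Tbxas1 (1.17 to 2.70), and other falls Cnn3, Tpm4, Wfdc17, Rasa4, Pou2f2 and Smad7 (-2.52 to -1.08). DESeq2 did not call Gng11, Bex4, Slc18a2, Tbxas1, Tpm4, Rasa4 or Smad7 (adjusted p = 0.0675 to 0.999). The MHC class II genes among the rises, H2-Eb1 and Cd74, had smaller values once the cells rich in genes of other types were left out. H2-Eb1 was at 21, 46 and 431 CPM against 16.3, 11 and 123 CPM (1.47 ± 0.26, adjusted p = 0.0203), and without the cells rich in genes of other types its log2 fold change was -0.0384 (adjusted p = 0.983). Cd74, the invariant chain, went from 2.70 to 1.11 and stayed called (adjusted p = 1.64e-04). Without the control library 9 genes were higher and 10 lower, and Cnn3, Hbb-bt, Bex4, Gng11, Slc18a2, Tbxas1, Tpm4, Rasa4, Pou2f2, Smad7 and Wfdc17 were among those no longer called. Without the Mll3-labelled library 17 were higher and 13 lower, and Apoe, Notch1, Gng11, Tbxas1, Tpm4, Rasa4, Smad7 and Wfdc17 were lost. Without the Mll4-labelled library 163 were higher and 187 lower.

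The fourth comparison split the CD150- cells by CD48. The CD48+ cells (279, 204 and 120 cells) were lower in stem cell genes and higher in replication and myeloid genes than the CD48- cells (91, 153 and 67 cells). Of 9321 genes 208 were higher (2.23%) and 257 lower (2.76%) in the CD48+ cells. Of 13 tested stem cell genes 9 fell and none rose (median -1.11 against 0.002 over all genes). Procr was at 13.4, 8.35 and 4.17 CPM in the CD48+ cells of control, the Mll3-labelled and the Mll4-labelled library and at 50, 24.6 and 20.8 CPM in the CD48- cells (-1.77 ± 0.24, adjusted p = 5.90e-08). Hlf fell by 1.11 on the log2 scale (± 0.10, adjusted p = 1.84e-14), Mecom by 1.26 (± 0.14, adjusted p = 6.80e-11) and Cdkn1c, the cell cycle inhibitor p57, by 1.53 (± 0.30, adjusted p = 2.87e-04). Myl10, a myosin light chain gene, was at 76.5, 40.4 and 25 CPM against 227, 145 and 122 CPM (-1.75 ± 0.13, adjusted p = 1.27e-19). Nkx2-3, a homeobox gene, was at 14.9, 6.99 and 4.17 CPM against 45.4, 32.6 and 41.6 CPM (-1.99 ± 0.24, adjusted p = 1.01e-09). In Procr and Mecom the CD48- cells were nearer to the CD150+CD48- cells than the CD48+ cells were, in each library.

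Of 20 S phase genes 9 rose in the CD48+ cells and none fell, among them Mcm2 (0.51 ± 0.13, adjusted p = 0.0111) and Mcm5 (0.45 ± 0.12, adjusted p = 0.0105), subunits of the replicative helicase. Median depth was 15624, 17301 and 4982 UMIs in the CD48+ cells and 9945, 11095 and 4443 UMIs in the CD48- cells, and its part in the S phase difference was not tested. Birc5, Aurkb and Bub1 rose among 20 G2/M genes, and 8 G2/M genes rose without the cells rich in genes of other types. Cdk6, the G1 kinase, rose by 0.56 ± 0.093 (adjusted p = 1.03e-05). Of 18 tested interferon response genes 5 fell, Ifitm3, Stat2, Oasl2, Rsad2 and Isg20, and Ly6e rose. Flt3 was not called (-0.059 ± 0.16, adjusted p = 0.914) and neither was Cd34 (0.15 ± 0.094, adjusted p = 0.439). Adgrl4 fell by 0.38 (± 0.093, adjusted p = 0.00492). Of the 4 population markers Adgrl4 was the one called across the CD48 split, and it was not called without the cells rich in genes of other types (adjusted p = 0.0505).

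Of 17 tested myeloid priming genes 5 rose (Cebpa, Irf8, Ms4a3, Ly86 and Nkg7) and Lyz2 fell. Irf8, the transcription factor of monocyte and dendritic fate, was at 29.8, 42 and 109 CPM in the CD48+ cells and 4.63, 10.4 and 0 CPM in the CD48- cells (2.57 ± 0.31, adjusted p = 4.41e-06). F13a1, coagulation factor XIII A, was at 13.7, 23.7 and 61.2 CPM against 4.63, 4.25 and 5.94 CPM (2.39 ± 0.34, adjusted p = 1.51e-07). Both were higher in the CD48+ cells of all 3 libraries. Without the cells rich in genes of other types the log2 fold changes were 1.98 for Irf8 and 2.54 for F13a1. The mast cell and basophil genes Mcpt8 (4.39 ± 0.50, adjusted p = 5.90e-08) and Cpa3 (2.91 ± 0.17, adjusted p = 5.72e-24) rose too. Of 118 Mcpt8 counts in the Mll4-labelled CD150- cells 113 lay in 10 cells, and without the cells rich in genes of other types Mcpt8 did not pass the filter on low counts and was not tested. Cpa3, mast cell carboxypeptidase, was at 17.8, 10.4 and 1875 CPM against 3.71, 2.84 and 219.9 CPM, and without the cells rich in genes of other types it still rose, by 2.38 (adjusted p = 1.66e-05). The 6 neutrophil genes that fell (S100a8, S100a9, Ngp, Camp, Lcn2 and Chil3) were no longer called without those cells. Other rises named by rule were Cd48, BC035044, Cst7, Atp8b4, Rab44 and Cebpa (1.39 to 1.72), and other falls Gimap8, Iigp1, Pf4, Ccl4, Ltb, Pdzk1ip1 and Hbb-bt (-2.14 to -1.56). Cd48 encodes the protein on which the split was made. DESeq2 did not call Mcpt8, Irf8 or Cebpa. Cebpa and Cst7 were lost without the control library and Rab44 without the Mll3-labelled library. Calls numbered 37 higher and 53 lower without the control library, 32 and 43 without the Mll3-labelled library and 373 and 382 without the Mll4-labelled library.

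Differences between genotypes within the CD150- cells have 1 library on each side, so they carry no test and no p. They are log2 ratios of CPM with 1 CPM added, with intervals for counting error, and a gene counts as past the fold at a 2-fold ratio or more with at least 20 counts in either library. The same ratio over all other filtered cells of the libraries is given for comparison. Those other cells always include the ones rich in genes of other types, also where such cells were left out of the gate. Both comparisons share the control library. In the Mll3-labelled library 77 of 10636 genes were past the fold higher (0.724%) and 132 lower (1.24%). Without the cells rich in genes of other types 84 were higher (0.8%) and 148 lower (1.41%) of 10506.

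Cdkn1c, highest in quiescent stem cells, was at 17.6 CPM in control CD150- cells (104 counts) and 4.28 CPM in the Mll3-labelled ones (28 counts), a log2 ratio of -1.82 (-2.70 to -1.43), against -0.29 in all other cells. Its levels in those other cells were low, at 2.54 CPM in control and 1.89 CPM with the Mll3 label. The added 1 CPM pulls a ratio of such levels toward 0. Its ratio in the CD150+ populations is not given here, so the fall is not read as particular to this gate. A Cdkn1c UMI was seen in 75 of 370 control and 22 of 357 Mll3-labelled CD150- cells. Itga2b, the gene of CD41, was at 22.7 and 7.79 CPM (-1.43, -2.04 to -1.07), against -0.38 in other cells, and the CD41 antibody median was 9 and 4. Transcript and protein of Itga2b were both lower in the Mll3-labelled cells. The lower CD41 median was not particular to this gate. It was 46 in control and 17 with the Mll3 label in the CD150+CD48- cells, 33 and 19 in the CD150+CD48+ cells and 5 and 3 in the Dntt+ cells. In all other filtered cells it was 3 in both libraries. Gucy1a1, a guanylate cyclase subunit, was at 14.7 and 4.36 CPM without the cells rich in genes of other types (-1.55), against -0.17 in other cells. Mt1 and Mt2, which encode metal-binding metallothioneins, went the other way. Mt1 was at 104 and 278 CPM (1.42, 1.29 to 1.56) against 0.33 in other cells, and Mt2 at 34.3 and 92.2 CPM (1.40) against 0.36. The 10 cells with the most Mt1 held 72.4% of its counts in control and 51.8% with the Mll3 label. Of the other genes named by rule, Reep6 had a log2 ratio of 1.64 in the CD150- cells and 0.47 in other cells, Tspo2 1.98 and 0.97, Cenpv 1.32 and 0.65, and Hspa1a 2.26 and 1.48. Tnip3 had -1.46 without the cells rich in genes of other types, and -0.82 in other cells. The ratios of these 10 genes were larger inside the gate than outside it, a difference that was not tested. The genes were named by their ratio inside the gate and grouped here by this difference, so it is description only.

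A further set of genes named by rule had ratios of the same sign and closer size in the gate and outside it. Nefh, a neurofilament gene, had a log2 ratio of -3.34 in the CD150- cells and -3.90 in other cells, Tjp1, a tight junction scaffold, -2.24 and -2.10, Nutf2-ps1 -1.56 and -1.52, and Nrgn -1.31 and -1.11. Gcnt1 had -1.47 and -1.17, Gdpd3 -1.38 and -1.05, and Rgs1 -1.22 and -1.17. Hist1h2ap, a histone H2A gene, had 1.70 and 1.65, Pttg1, securin, 1.65 and 1.95, and Lyrm7 1.87 and 1.83. Slc15a2, a peptide transporter, had 0 counts in the Mll3-labelled CD150- cells and 71 in control, at least 26.2-fold lower against a floor of 3 counts, and was at 0 and 4.26 CPM in other cells. These genes thus differed on both sides of the gate. Hist1h2ap, Hspa1a, Hbb-bt, Ly6a, Iigp1, Ifitm1 and Clca3a1 belong to families with near-identical copies, so their counts are uncertain. Olfm4, highest in ratio with the whole gate (3.38), was at 0.161 and 0.181 CPM once the cells rich in neutrophil and other genes were left out. Without those cells the neutrophil genes Ltf, Ngp, Lcn2, Chil3 and Camp were past the fold higher (1.51 to 2.06), and they were lower in the other cells of the same library (-0.77 to -0.48). Cells with 100 to 500 neutrophil UMIs per 10000, below the limit, were 1 control cell and 6 Mll3-labelled cells, and their part in this was not tested.

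By list, 14 of 17 measured erythroid and megakaryocyte genes were higher in the Mll3-labelled CD150- cells, 5 past the fold (median 0.68 against -0.045 over all genes and 0.077 for the list in other cells). Klf1 was at 20.1 and 44.7 CPM (1.11, 0.84 to 1.47) and Ermap, an erythroid membrane protein, at 22.8 and 54.1 CPM (1.21, 0.95 to 1.54). Cells with a Klf1 UMI were 17 of 370 and 31 of 357, and cells with an Ermap UMI 18 and 34. With each cell thinned to 2000 UMIs the list's median was 0.0576, and the part of depth in the list's difference was not tested. All 20 G2/M genes were higher, by a median of 0.18, with none past the fold. Of 13 measured immediate early genes 1, Klf2, was higher, and it was lower (-1.28) without the cells rich in genes of other types. The list's median was -0.45, and -0.33 in other cells, with Jun at 136 and 73.4 CPM and Fos at 19.1 and 9.93 CPM. The stem cell list had a median of -0.35, against 0.029 in other cells, with 7 of 17 measured genes higher. It was -0.16 as a mean over cells and -0.22 with cells thinned. Elane was at 248 and 532 CPM, while the myeloid priming list as a whole had a median of -0.13, which was 0.2798 with cells thinned and 0.0149 as a mean over cells.

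In the Mll4-labelled library 703 of 10429 genes were past the fold higher (6.74%) and 612 lower (5.87%), and with TMM scaling the split was 506 and 849. The scaling moved the median ratio of all genes from 0.0639 to -0.0854. Mast cell genes led the rises. Cma1, mast cell chymase, had 2 counts (0.338 CPM) in control and 830 counts (786 CPM) in the Mll4-labelled CD150- cells. Mcpt4, another chymase, was at 0 and 307 counts, at least 573-fold higher against a floor of 3 counts, and Tpsb2, a tryptase, at 0 and 73 counts, at least 136-fold higher. Cpa3, Fcer1a, Ms4a2, Il1rl1, Gzmb, Scin and Olfm4 followed. Without the cells rich in genes of other types Mcpt4 and Tpsb2 had 0 counts and Cma1 was at 6.42 CPM. All 7 measured mast and basophil genes, all 10 neutrophil genes and 6 of 9 MHC class II genes were past the fold higher with those cells in.

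With those cells left out 578 of 10221 genes were past the fold higher (5.66%) and 533 lower (5.21%). TMM scaling then gave 268 and 817, and moved the median of all genes from 0.1161 to -0.0889. These counts come from 109 cells with a median of 4916 UMIs, so low genes reach the fold by counting error more readily than in the Mll3-labelled library. Among the rises, Slc16a11 stood at 104 CPM with the Mll4 label against 18.3 CPM in control (2.45, 2.04 to 2.98), against 1.36 in all other cells. It was the gene that rose most in the CD150- cells against the CD150+CD48+ cells. Iigp1, an interferon-inducible GTPase, was at 25.5 and 127 CPM (2.27, 1.90 to 2.72) against 1.41 in other cells, while the interferon response list had a median of -0.12 with 9 of 19 genes higher, and one of -0.47 with all cells. Atp5k, an ATP synthase subunit, was at 126 and 545 CPM (2.11) against 1.34. The MHC class II genes H2-Eb1, Cd74 and H2-Aa (2.29 to 3.04), the neutrophil genes Ltf and Chil3, Cpa3 and Hist1h2ap were higher in all other cells as well (1.74 to 3.11).

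Among the falls, Cyp11a1, a steroidogenic cytochrome P450, had 0 counts in the 109 Mll4-labelled cells and 133 counts (24.1 CPM) in control, at least 5-fold lower, and was at 5.48 and 5.49 CPM in all other cells. With all 187 cells it had 48 counts, 34 of them in 10 cells. Gdpd3, a lysophospholipase D, had 0 counts against 191 (34.6 CPM), at least 7.18-fold lower, against -0.96 on the log2 scale in other cells, and it was also lower in the Mll3-labelled CD150- cells (12.1 against 33 CPM). Dok2, a docking protein that restrains cytokine signalling, was at 33.1 and 3.21 CPM (-3.02, -6.42 to -1.49) against -1.18 in other cells. Klk8 was at 58.5 and 9.63 CPM (-2.48) against -1.50. Apoe (-2.93 and -2.32 in other cells), Lgals1 (-1.98 and -1.73), Ifitm1 (-1.50 and -1.29) and Gmfg (-1.43 and -0.61) were lower on both sides of the gate, as were Hist1h2bl and Tsix, which overlaps Xist on the other strand. These genes thus differed from control in the whole library.

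By list, without those cells, 17 of 20 G2/M genes (median 0.34) and 16 of 20 S phase genes (0.42) were higher in the Mll4-labelled CD150- cells, against a median of 0.1161 over all genes. With TMM scaling the medians were 0.1254 and 0.2079, against -0.0889 over all genes, and with all cells 0.61 and 0.21, against 0.0639. The erythroid and megakaryocyte list had a median of -0.55 with 6 of 17 measured genes higher, and -0.998 in other cells. With all cells of the gate it was -0.91, and 0.111 without the cells of highest doublet score. The stem cell list had a median of -0.0681, which was -0.28 with TMM scaling, -0.16 with all cells and 0.0838 with all cells and antibody limits scaled to each library. The 4 population markers had a median of -0.16, which was -0.38 with TMM scaling and -0.61 with all cells. Myeloid priming genes, at a median of 1.02 with all cells, were at 0.24 without the cells rich in genes of other types, and at 0.0334 with TMM scaling besides.

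**Figure D5:**
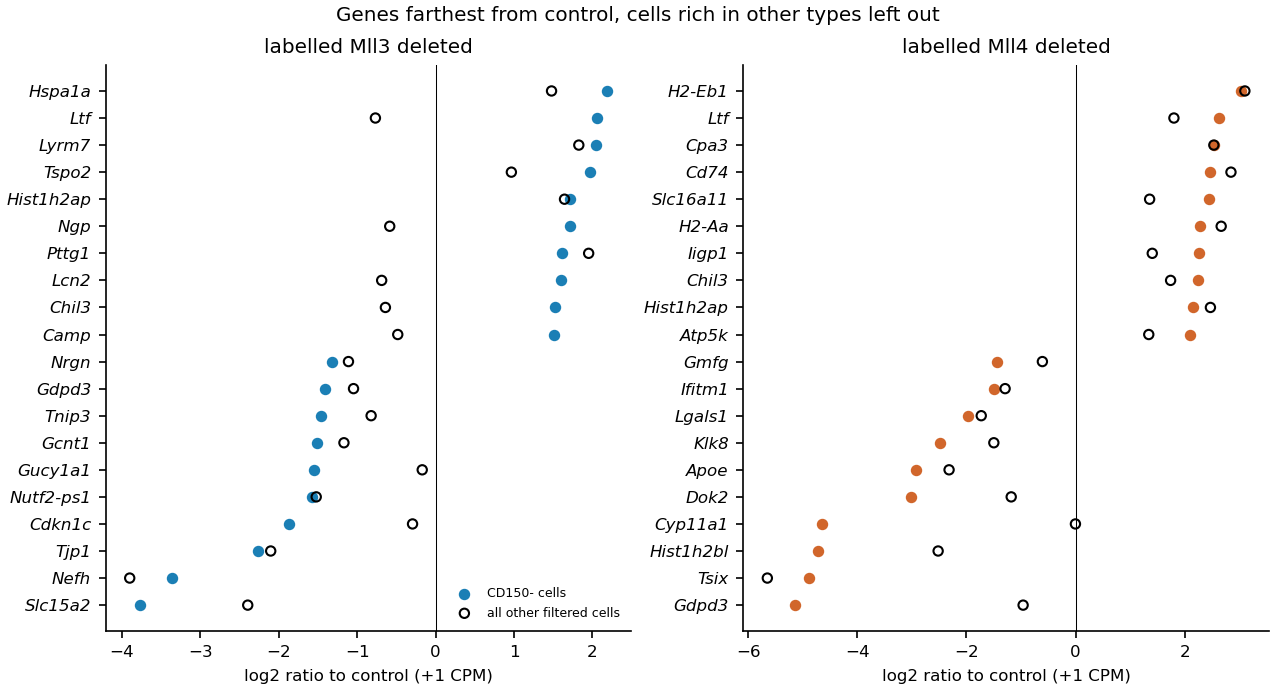
Log2 ratio to control (horizontal axes, 1 CPM added) of the genes named by rule, without the cells rich in genes of other types, in the Mll3-labelled (left) and Mll4-labelled (right) library; filled points are the CD150- cells and open points all other filtered cells. Cdkn1c stands at -1.87 in the gate and -0.29 outside it on the left, where its levels outside were 1.89 and 2.54 CPM. On the right Cyp11a1, with 0 counts in the gate, stands away from its open point near 0.

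After thinning each cell to 2000 UMIs, a Cd34 UMI was seen in 53.9% of control CD150- cells (48.7 to 59.1%), 45.7% of Mll3-labelled ones (40.4 to 51%) and 39.4% of Mll4-labelled ones (31.9 to 47.3%), against 14.1% of all other control cells. Unthinned shares were 95.1%, 91.3% and 61.5%. A Flt3 UMI was seen in 14.6%, 10.4% and 10.3% of thinned CD150- cells, against 2.39%, 1.61% and 1.32% of CD150+CD48- cells. For Flt3 the shares follow the order of the summed levels. For Cd34 the share was lowest with the Mll4 label and the summed level lowest with the Mll3 label, so no order is read between these 2 libraries. The cells too shallow to be thinned numbered 1, 0 and 22. These shares and summed levels include the cells rich in genes of other types.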

How the data were processed

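RNA and antibody tags were measured in single cells of 4 libraries, 1 for each group. The deposited matrices hold UMI counts of 32285 genes, 13 surface antibodies and 2 hashtag antibodies per barcode, written by the authors with Cell Ranger 6.1.2 on mm10, per the submitters' processing notes; the annotation release and the cell calling are not given in the sources used here. Barcodes of 500 genes or more, 1000 gene UMIs or more and no more than 10% of mitochondrial UMIs were kept (19758 in the 3 libraries compared), and the antibody and gene limits given with the cells were applied to raw counts. Doublets were kept, and leaving out the highest Scrublet scores (0.8% per 1000 barcodes) was an alternative.

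UMI counts were summed per library and population and tested with edgeR 4.0.16 (R 4.3.3) by quasi-likelihood with TMM scaling, filterByExpr and library as a block, two-sided, with Benjamini-Hochberg adjustment over all genes tested. The 3 libraries, of different genotype, are the replicates, so p-values measure only the spread between them, and nothing says how many animals each holds. DESeq2 1.42.0 was an alternative. Between libraries of 1 per group no test was made: log2 ratios of CPM with 1 CPM added are given, with exact 95% intervals that cover counting error only. Named genes were the 10 of largest change in each direction, with 20 CPM or more in the higher population and called, or with 50 counts or more and the interval bound farthest from 0, leaving out Dntt and the 6 B-lineage genes of the selection, Xist, mitochondrial, ribosomal, Y-linked, receptor-segment and unnamed genes. Some genes of the lists and of this rule are not reported here. The members and the 21 gene lists were chosen with earlier results of these data known. The fits were tested on simulated data. The limits for cells rich in genes of other types, and other CD48 thresholds, were chosen after seeing the data. Gene positions come from GENCODE's mm10 annotation, matched by gene identifier.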

Additional observations from a re-analysis of the deposited data

How the results depend on the processing

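Depth and the number of libraries limit these results: 3 libraries carry each test, and genotypes have 1 library each. The cause of the changes below was not tested, except that thinning, a higher count minimum and stricter gates leave fewer counts or cells. The share of CD150- cells was 3.57%, 3.9% and 2.14% (control, Mll3-labelled, Mll4-labelled) with the CD150 limit divided by 2 and 6.33%, 6.95% and 4.14% with it multiplied by 2; with the Sca1 limit divided by 1.5 it was 6.72%, 8.36% and 5.66%, and multiplied by 1.5 it was 3.62%, 4.21% and 2.16%. With the CD117 limit multiplied by 1.5 it was 3.91% in control and 2.62% in the Mll4-labelled library, and divided by 1.5 it was 3.95% in the latter. Antibody limits scaled to each library gave 2.37% in the Mll4-labelled library. Leaving cells rich in genes of other types out of the numerator only gave 1.93% there. Thinning before the Dntt and B-gene rules gave 5.55% in control and 6.5% with the Mll3 label.

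Counts of genes called, higher and lower, changed as follows in the comparisons with the CD150+CD48- cells, the CD150+CD48+ cells, the Dntt+ cells and by CD48. DESeq2 gave 207 and 200, 195 and 189, 10 and 13, and 30 and 46. Cells thinned to 2000 UMIs gave 98 and 83, 70 and 40, 7 and 9, and 15 and 29. With edgeR and no library block, which ignores the pairing of populations within a library, the counts were 32 and 67, 0 and 0, 0 and 5, and 0 and 0, against 396 and 549, 410 and 258, 135 and 83, and 107 and 253 at an unadjusted p under 0.05. Leaving out 1 library gave 256 to 1012 and 253 to 971, 255 to 1009 and 252 to 1013, 9 to 163 and 10 to 187, and 32 to 373 and 43 to 382. Against the Dntt+ cells, no filter on low counts gave 94 and 66, leaving out cells rich in genes of other types 94 and 70, scaled antibody limits 66 higher and leaving out the highest doublet scores 60 lower. By CD48, no filter gave 373 higher, the CD150 limit divided by 2 gave 46 and 68, and leaving out the highest doublet scores 168 lower.

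Genes past 2-fold in the Mll3-labelled library numbered 131 and 207 at a minimum of 5 counts, 26 and 32 at 100, 116 and 210 with 0.1 CPM added and 9 and 8 with 10 CPM added. In the Mll4-labelled library they numbered 346 and 103 with 10 CPM added, 306 and 256 at 100 counts, 320 and 307 with cells thinned, 987 lower at 5 counts, and 268 higher without the rich cells under TMM scaling.

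List medians changed sign as follows. In the Mll3-labelled library the lymphoid list was at 0.0141 with TMM scaling, 0.0406 as a mean over cells and 0.0031 without the rich cells under TMM scaling, and the myeloid list at 0.0149 as a mean over cells and 0.2798 thinned. In the Mll4-labelled library the stem cell list was at 0.0838 with scaled antibody limits and the erythroid and megakaryocyte list at 0.111 without the highest doublet scores. The lymphoid list there was at -0.0448 thinned, -0.1297 without the rich cells and -0.3415 with TMM scaling besides, and the immediate early list at -0.0569 with TMM scaling, -0.0285 at 5 counts, -0.1545 at 100 counts, -0.1345 thinned, -0.2506 without the rich cells and -0.4617 with TMM scaling besides. H2-Eb1 against the Dntt+ cells was at -0.0384 without the rich cells.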

Other observations

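Each library carried 2 hashtag antibodies, and the labels do not say what each marks. Among cells with at least 4 times more of one hashtag than of the other, CD150- cells were 5.58% of Hashtag1 and 3.95% of Hashtag2 cells in control, 6.71% and 4.38% with the Mll3 label, and 2.37% and 4.01% with the Mll4 label. In the Mll4-labelled library cells rich in neutrophil, mast cell or MHC class II genes were 15.2% of the 66 Hashtag1 CD150- cells and 52.9% of the 102 Hashtag2 ones, against 2.37% and 4.14% of control and 2.28% and 5.17% of Mll3-labelled ones. CD48+ cells were 75.8% and 73.8% of the CD150- cells of the 2 hashtags in control, 51.1% and 61.2% with the Mll3 label and 57.6% and 64.7% in the Mll4-labelled library. The CD48+ share was higher in control than in the other libraries for each hashtag.

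Cytokine receptor genes differed between the CD150- and the CD150+CD48- cells: 7 of 16 tested rose (Flt3, Csf2rb, Csf3r, Il6ra, Ifngr1, Il1r1 and Tgfbr1) and Tek was among those that fell, with a median log2 fold change of 0.42 against 0.0019 over all genes. Of 12 tested homing and adhesion genes Cd44 and Gpr171 were among those that rose, and Itga6, Itgb1, Esam and Jam3 fell. Of 9 tested members of the Mll3/4 complex list none was called in that comparison, nor in those with the Dntt+ cells and by CD48, and Dpy30 fell against the CD150+CD48+ cells.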
